A study of Mus musculus with 6 samples.

Results

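Iron enters and leaves the heart cell through a small set of transporters, is stored in ferritin, and is built into iron-sulfur clusters in mitochondria. The 9 genes described here were taken by name from the gene count table. They are Tfrc, Slc11a2 and Slc40a1 (transport), Fth1 and Ftl1 (ferritin), Aco1 and Ireb2 (iron regulatory proteins), and Iscu and Nfs1 (iron-sulfur cluster assembly). All 9 were found among the 54532 genes of the table, and all 9 were among the 14774 genes with enough counts to be tested.

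Left ventricles of 3 mice with the transgene (TG) and 3 without it (NTG) were taken 4 weeks after aortic banding (AB) for RNA sequencing. AB is a constriction of the aorta that overloads the heart with pressure. The mice were male and 8 to 10 weeks old at surgery. TG mice (genotype label HINT2CTG-Myh6Cre) carried a HINT2 transgene behind the CAG promoter. A tamoxifen-activated Cre under the Myh6 promoter switches this transgene on in cardiomyocytes. NTG mice carried the genotype label C57BL/6J. HINT2 is a mitochondrial histidine triad protein, and the comparison asked what its overexpression changes in the pressure-overloaded heart. The NTG label names no Cre, and tamoxifen in NTG mice is not described for this cross, so the transgene, the Cre and tamoxifen cannot be told apart as sources of a difference. The sources do not say whether the hearts came from separate litters or days, and the p-values measure only the spread between these hearts. No sham-operated heart was analysed here.

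Cardiomyocytes take up transferrin-bound iron through the transferrin receptor and release iron through ferroportin, the known cellular iron exporter. When iron is scarce, iron regulatory proteins bind stem-loops called iron-responsive elements. Binding in a 5′ UTR blocks translation, as for ferritin and ferroportin, and binding in the 3′ UTR of the transferrin receptor mRNA protects it from decay. The heart depends on iron-sulfur clusters and haem for its respiratory chain, and both loss and excess of iron are known to harm it. RNA levels show only part of this control, because ferritin and ferroportin are set largely at translation.

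Stem-loops with the letters of an iron-responsive element are shown because their place in the transcript divides the 9 genes, into Tfrc with matches in the 3′ UTR, 3 genes with a match in the 5′ UTR, and the rest. They were searched for in the GENCODE M21 transcripts (build GRCm38) with the letters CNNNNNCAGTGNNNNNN on the transcript strand, where the 5 bases before and the 5 bases after the loop of 6 bases had to pair, G-T pairs allowed. Each line gives 29 bases, 5′ to 3′ on the strand named, with the loop in capitals. All 4 Tfrc matches lie in the 3′ UTR, in exon 19, and the other members' matches lie in 5′ UTRs.
Tfrc 3′ UTR, chr16:32631219-32631247 (+): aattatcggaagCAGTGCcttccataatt
Tfrc 3′ UTR, chr16:32631598-32631626 (+): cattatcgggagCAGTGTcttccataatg
Tfrc 3′ UTR, chr16:32631663-32631691 (+): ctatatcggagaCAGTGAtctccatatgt
Tfrc 3′ UTR, chr16:32631710-32631738 (+): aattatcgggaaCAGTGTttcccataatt
Slc40a1 5′ UTR, chr1:45925465-45925493 (-): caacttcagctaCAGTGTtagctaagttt
Fth1 5′ UTR, chr19:9982732-9982760 (+): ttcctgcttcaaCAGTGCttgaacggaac
Ftl1 5′ UTR, chr7:45459779-45459807 (-): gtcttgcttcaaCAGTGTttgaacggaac

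No match was found in the transcripts of Slc11a2, Aco1, Ireb2, Iscu or Nfs1, which says only that no stretch of these transcripts met both the letters and the pairing. A match of this kind was found in the 5′ UTR of 31 of 20916 genes (0.148%) and in the 3′ UTR of 129 of 21039 genes (0.613%). The Fth1 and Ftl1 matches have the same upper stem around loops that end in different bases.

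The libraries held 14863568 to 17581220 counts in the NTG group and 14944465 to 17235802 in the TG group. Counts were scaled to CPM, the counts of a gene relative to the TMM-normalized size of its library. The groups were compared by the quasi-likelihood test of edgeR, and p-values were adjusted by Benjamini-Hochberg over the whole table. The word called is used where that adjusted p was below 0.05 and the absolute log2 fold change (TG minus NTG) was over 0.5. In these hearts edgeR called 0 of 14774 genes (0%), with a smallest adjusted p of 0.196, while 2747 genes had an unadjusted p under 0.05. DESeq2 called 583 of 13908 genes (4.19%), limma-voom called 0, and the likelihood-ratio test of edgeR called 545.

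The label check was the Hint2 gene of the mouse, into which reads of the transgene may or may not have been counted. Its row held 793, 828 and 859 counts in the TG hearts and 12, 545 and 559 in the NTG hearts. The 12 counts belong to the library labelled NTG 1, which stood apart from both other NTG hearts. The log2 fold change of Hint2 was 1.33 (SE 0.86, edgeR adjusted p = 0.433), and 0.77 (SE 0.12, edgeR adjusted p = 0.0212) without that library. Its share of counts from the mitochondrial genome was 19.2%, against 13.4% and 14.3% in the other NTG hearts and 16% to 21.5% in the TG hearts. Over all tested genes it also lay nearer to the TG hearts than to its own group. On the axis of largest variation (52.3% of the variance) it was at -5.08, with the other NTG hearts at 55.7 and 29.3 and the TG hearts between -36.5 and -10.7. Its chi-square distance per gene was 17.9 to 28.3 to the TG hearts and 33.6 and 71.4 to the other NTG hearts. The log2 fold change of each of the 9 genes is therefore also given without it.

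The heart tissue itself was checked by its defining markers. The 7 cardiomyocyte markers summed to 18354 to 31138 CPM in NTG and 29784 to 36985 CPM in TG hearts. Fibroblast markers (6 genes) summed to 4047 to 9451 CPM in NTG and 1995 to 3429 CPM in TG hearts, macrophage markers (9 genes) to 1048 to 1937 and 802 to 1137 CPM, and erythroid markers (7 genes) to 1310 to 2248 and 763 to 908 CPM. The fibroblast and erythroid sums did not overlap between the groups, and the cardiomyocyte and macrophage sums did. All 7 cardiomyocyte markers had a log2 fold change above 0, and all 6 fibroblast, all 9 macrophage and all 5 tested erythroid markers had one below 0. Without NTG 2, 2 of the 9 macrophage markers lay above 0 and their median went from -0.56 to -0.21. The part of these shifts in the differences given below was not tested. The endothelial markers (5 genes) summed to 1393 to 1604 CPM in NTG and 1471 to 1616 CPM in TG hearts, and the proliferation markers (5 genes) to 27.4 to 49.0 and 29.2 to 51.8 CPM. In whole ventricle, fewer cells of a type and less RNA per cell cannot be told apart.

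None of the 9 iron genes was called, and none was called under any alternative processing. Their log2 fold changes lay between -0.29 (Ftl1) and 0.33 (Iscu), with 7 above 0, 2 below 0 and a median of 0.15. Over all genes tested the median was -0.0081 and 48.7% lay above 0. The members' median was 0.023 without TG 2, 0.072 without TG 1, 0.085 without NTG 3 and 0.13 without the library labelled NTG 1, and 0.059 when counts were scaled by library size alone. The group CPM ranges did not overlap for 1 of the 9 genes, Iscu, with TG above. Such a separation was seen in 11.2% of all tested genes with TG above and in 12.3% with TG below. One gene, again Iscu, had an unadjusted p under 0.05 with TG higher, against 8.83% of tested genes in that direction and 9.76% in the other. There were 0 such members without NTG 2, NTG 3 or TG 1, 2 without the library labelled NTG 1 and 3 without TG 2. Without TG 3 there was 1, which was Tfrc and not Iscu.

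**Figure D1:**
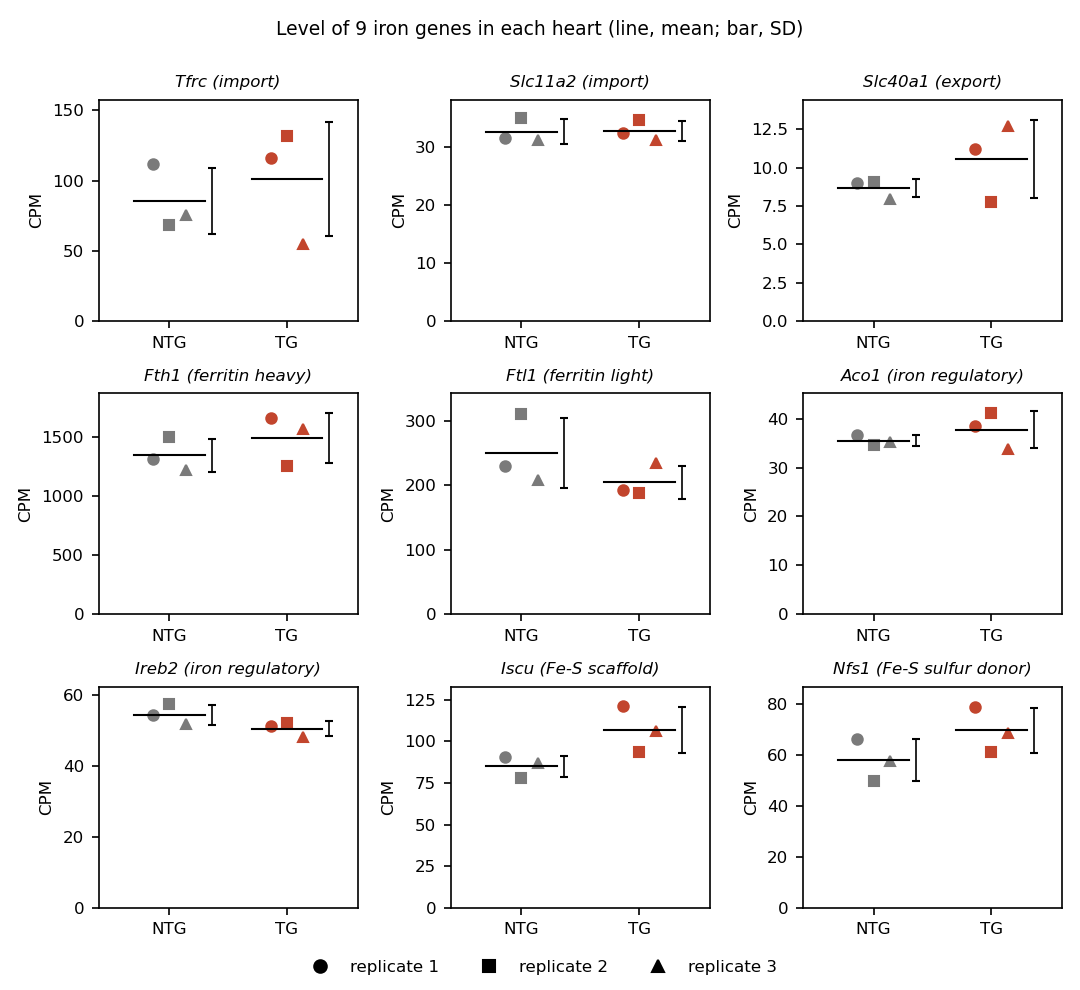
CPM (y axis, from 0) of the 9 iron genes in each of the 3 NTG and 3 TG hearts, with a line at the group mean, a bar for the SD and a symbol for the replicate number. In Iscu every TG heart lies above every NTG heart, in the other 8 genes the groups overlap, and Tfrc has the widest relative spread, from 54.9 to 132 CPM among TG hearts.

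Tfrc (ENSMUSG00000022797, chr16:32608920-32632794, + strand) encodes the transferrin receptor, the main entry of iron into cardiomyocytes. Its level was 112, 68.3 and 75.7 CPM in the NTG hearts and 116, 132 and 54.9 CPM in the TG hearts. The highest and the lowest of the 6 hearts were both TG, and the groups overlapped. The means were 101 ± 40.6 CPM in TG and 85.3 ± 23.4 CPM in NTG (SD, n = 3 each). The log2 fold change was 0.24 with an SE of 0.34 and a 95% interval from -0.57 to 1.06 (edgeR adjusted p = 0.724).

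Tfrc was the most variable of the 9 genes. TG hearts differed 2.40-fold between the highest and the lowest, and the coefficient of variation among them was 40.3%, against a median of 11.8% over all tested genes. A lower value was found in 91.4% of tested genes. The fold change depended on single hearts. It was 0.0010 without TG 2, 0.54 without TG 3 (edgeR adjusted p = 0.425, unadjusted p = 0.0390) and 0.48 without the library labelled NTG 1. At this spread, the 95% interval holds both a decrease and a doubling of Tfrc RNA in TG hearts.

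Slc11a2 (ENSMUSG00000023030, chr15:100387898-100425072, - strand) encodes the divalent metal transporter that moves iron out of endosomes, the step after transferrin receptor uptake. It was 31.5, 35 and 31.1 CPM in NTG hearts and 32.4, 34.5 and 31.2 CPM in TG hearts. These were the closest groups of the 9 genes. The log2 fold change was 0.0058 (SE 0.097, 95% interval -0.22 to 0.23, edgeR adjusted p = 0.981), and its sign changed to -0.078 when counts were scaled by library size alone and to -0.019 without the library labelled NTG 1. The interval leaves out a change as large as the threshold of 0.5 in either direction.

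Slc40a1 (ENSMUSG00000025993, chr1:45908068-45926523, - strand) encodes ferroportin, the iron exporter. Its levels were low, at 9.01, 9.03 and 7.98 CPM in NTG hearts and 11.2, 7.79 and 12.7 CPM in TG hearts, from 132 to 206 counts per library. Both the highest and the lowest heart were TG. On the log2 scale the fold change was 0.28 (SE 0.20, 95% interval -0.17 to 0.74, edgeR adjusted p = 0.458). It was 0.46 without TG 2 (unadjusted p = 0.0249, edgeR adjusted p = 0.212), 0.12 without TG 3 and 0.31 without the library labelled NTG 1.

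Fth1 (ENSMUSG00000024661, chr19:9982703-9985092, + strand) encodes the ferritin heavy chain, which oxidizes iron for storage. It was by far the most abundant of the 9 genes, at 1315, 1503 and 1221 CPM in NTG hearts and 1666, 1256 and 1567 CPM in TG hearts. The highest 2 values were TG, but TG 2 lay below 2 of the NTG hearts. TG hearts differed from NTG hearts by a log2 fold change of 0.15 (SE 0.16, 95% interval -0.22 to 0.53, edgeR adjusted p = 0.637). Single hearts moved it both ways, to 0.066 without TG 1, 0.085 without NTG 3 and 0.26 without TG 2. It was 0.13 without the library labelled NTG 1 and 0.059 with library-size scaling alone.

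Ftl1 (ENSMUSG00000050708, chr7:45457944-45459884, - strand) encodes the ferritin light chain, which helps the iron core to form. It was 230, 311 and 208 CPM in NTG hearts and 192, 187 and 234 CPM in TG hearts. The fold change had the opposite sign to that of Fth1, at -0.29 (SE 0.17, 95% interval -0.68 to 0.10, edgeR adjusted p = 0.383). It rested largely on NTG 2, the highest heart, and was -0.098 without it, while it was -0.34 without the library labelled NTG 1.

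Ferritin genes have near-identical copies in the genome, so their counts are uncertain where reads could be shared. The 3 listed light chain copies held 55 to 145 counts per library, or 1.63% to 2.48% of the Ftl1 counts, and adding them to Ftl1 left its log2 fold change at -0.29. The 2 listed heavy chain copies held at most 4 counts in any library.

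Within each heart, the ratio of Fth1 to Ftl1 counts was 5.72, 4.83 and 5.88 in NTG and 8.66, 6.70 and 6.70 in TG hearts. All 3 TG hearts lay above all 3 NTG hearts. The ratio was 1.34-fold higher in TG hearts (log2 difference 0.42, exact two-sided permutation test p = 0.1, 0.15 after Benjamini-Hochberg adjustment over 3 ratios). With 3 hearts in each group this test cannot go below 0.1, so the separation cannot pass 0.05. The difference was 0.30 to 0.48 when any 1 heart was left out. The ratio removes the scaling between libraries, and because it is not corrected for gene length, it does not give the proportion of the chains.

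**Figure D2:**
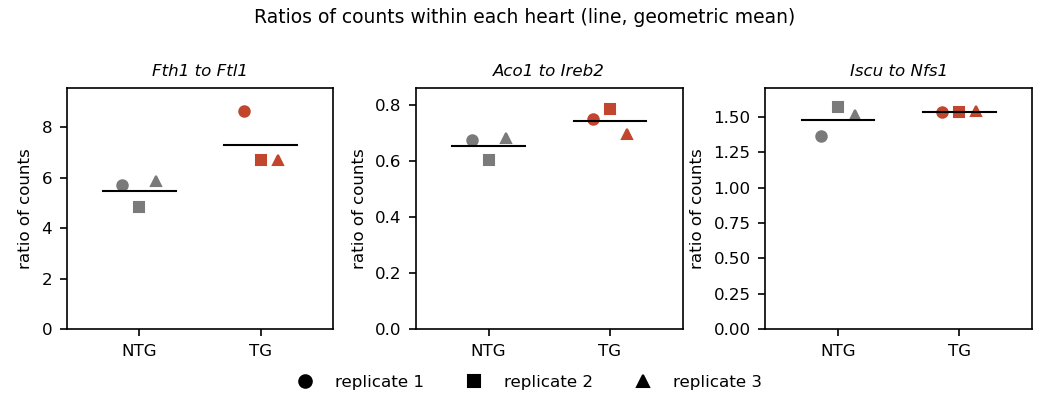
Ratio of counts between gene pairs within each heart (y axis, no unit, from 0), for Fth1 to Ftl1, Aco1 to Ireb2, and Iscu to Nfs1, with a line at the geometric mean of each group. TG hearts lie above NTG hearts for the ferritin pair and the iron regulatory pair, and the groups overlap for Iscu to Nfs1.

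Aco1 (ENSMUSG00000028405, chr4:40143081-40198338, + strand) and Ireb2 (ENSMUSG00000032293, chr9:54863789-54912530, + strand) encode the iron regulatory proteins, the first of which is also the cytosolic aconitase when it holds an iron-sulfur cluster. Aco1 was 36.7, 34.6 and 35.3 CPM in NTG and 38.4, 41.0 and 33.7 CPM in TG hearts. Ireb2 was 54.3, 57.3 and 51.7 CPM in NTG and 51.2, 52.1 and 48.3 CPM in TG hearts. Both genes varied little and overlapped between the groups. The log2 fold change was 0.088 for Aco1 (SE 0.10, 95% interval -0.15 to 0.32, edgeR adjusted p = 0.662) and -0.11 for Ireb2 (SE 0.085, 95% interval -0.30 to 0.089, edgeR adjusted p = 0.509). Neither interval reached a change of 0.5. The Aco1 value was 0.023 without TG 2, 0.16 without TG 3, 0.11 without the library labelled NTG 1 and 0.0071 with library-size scaling alone. The Ireb2 value was -0.070 without NTG 2, -0.11 without the library labelled NTG 1 and -0.19 with library-size scaling alone.

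The ratio of Aco1 to Ireb2 counts separated the groups. It was 0.675, 0.603 and 0.682 in NTG and 0.751, 0.788 and 0.698 in TG hearts, with a log2 difference of 0.19 (exact two-sided permutation test p = 0.1, the smallest it can give, 0.15 after adjustment over the 3 ratios). TG 3 and NTG 3 were the closest pair across the groups. Leaving out 1 heart at a time gave 0.13 to 0.24.

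Iscu (ENSMUSG00000025825, chr5:113772748-113778288, + strand) encodes the scaffold on which mitochondrial iron-sulfur clusters are assembled. It was 90.5, 78.1 and 86.7 CPM in NTG hearts and 121, 93.7 and 106 CPM in TG hearts. The means were 107 ± 13.6 CPM in TG and 85.1 ± 6.35 CPM in NTG (SD, n = 3 each), and the lowest TG heart lay above the highest NTG heart. The log2 fold change was 0.33 (SE 0.12, 95% interval 0.060 to 0.60), with an unadjusted p of 0.0225 and an edgeR adjusted p of 0.217. The adjusted p was 0.174 with DESeq2.

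The Iscu difference kept its sign in every alternative, with values from 0.23 (without TG 1) to 0.41 (without TG 2). The unadjusted p passed 0.05 upwards when NTG 2, NTG 3, TG 1 or TG 3 was left out, to between 0.0509 and 0.0976. With the library labelled NTG 1 left out, Iscu had a log2 fold change of 0.37 (unadjusted p = 0.0201, edgeR adjusted p = 0.114).

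Nfs1 (ENSMUSG00000027618, chr2:156123639-156144186, - strand) encodes the cysteine desulfurase that supplies sulfur to the scaffold. It was 66.3, 49.9 and 57.4 CPM in NTG hearts and 79.0, 61.2 and 68.7 CPM in TG hearts. The library labelled NTG 1 lay above TG 2, and both other NTG hearts lay below all TG hearts. On the log2 scale the fold change was 0.27 (SE 0.14, 95% interval -0.044 to 0.58, edgeR adjusted p = 0.322). It was 0.37 without the library labelled NTG 1, with an unadjusted p of 0.0218 and an edgeR adjusted p of 0.119. Without TG 2 it was 0.35 (unadjusted p = 0.0422, edgeR adjusted p = 0.246). It was 0.17 both without TG 1 (unadjusted p = 0.286) and without NTG 2 (unadjusted p = 0.232). The unadjusted edgeR p was 0.0134 with a replicate block and 0.0428 with no low-count filter.

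Iscu and Nfs1 were counted in nearly the same proportion in the TG hearts. The ratio of Iscu to Nfs1 counts was 1.53, 1.53 and 1.54 in TG hearts, and 1.37, 1.57 and 1.51 in NTG hearts. The groups overlapped, and the log2 difference was 0.055 (exact two-sided permutation test p = 0.7, 0.7 after adjustment over the 3 ratios). The low value belonged to the library labelled NTG 1, without which the difference was -0.0024.

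**Figure D3:**
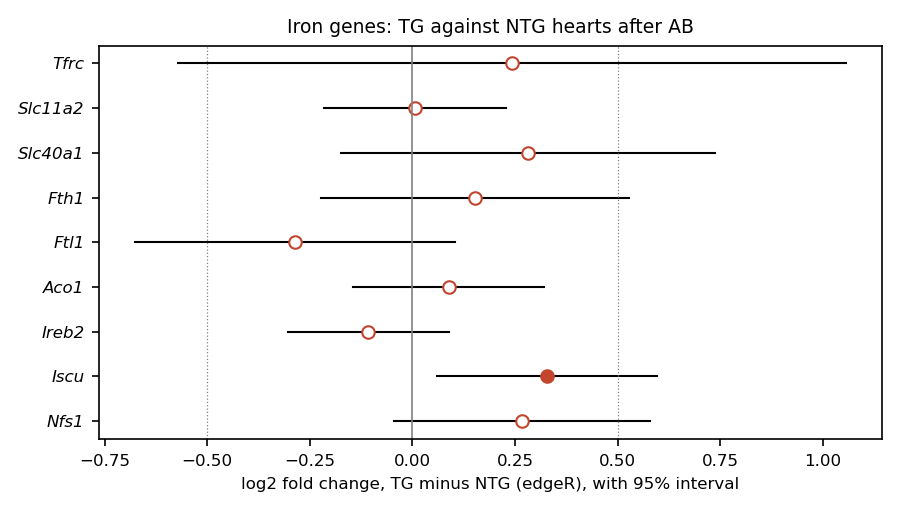
log2 fold change (x axis, TG minus NTG, edgeR) of the 9 iron genes with 95% intervals. The filled point marks Iscu, whose groups do not overlap and whose interval runs from 0.060 to 0.60, the intervals of the other 8 genes include 0, and the dotted lines mark the threshold of 0.5 in either direction.

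The 9 genes span a wide range of abundance. Expressed per length as RPKM, the median over the 6 hearts was 1627 for Fth1, 163 for Ftl1, 42.3 for Iscu, 17.6 for Nfs1, 15.2 for Tfrc, 8.0 for Aco1, 5.48 for Ireb2, 5.03 for Slc11a2 and 1.0 for Slc40a1. The ranges over hearts did not overlap between Fth1 and Ftl1, Ftl1 and Iscu, or Iscu and Nfs1. Nfs1 and Tfrc overlapped, as did Tfrc and Aco1 and also Ireb2 and Slc11a2. Aco1 lay above Ireb2 and Slc11a2 above Slc40a1 in all 6 hearts without overlap of the ranges. The order is that of RNA per annotated length, which the choice of isoforms can shift.

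To place the 9 genes in their pathways, 89 further genes of iron transport, storage, regulation, haem and iron-sulfur biology were listed, all present in the table, and 81 of them were tested. None was called by edgeR, and 49 lay above 0 and 32 below 0, with a median log2 fold change of 0.086. An unadjusted p under 0.05 was found for 18 of 81 genes with TG higher, against 8.83% of all tested genes, and for 12 of 81 with TG lower, against 9.76%. These counts depended on single hearts. The 18 became 6 without TG 1, 7 without NTG 3, 9 without TG 3, 11 without NTG 2 and 30 without the library labelled NTG 1, and the 12 became 6 without NTG 2, 7 without TG 1 and 8 without TG 2. The median was 0.047 without NTG 2, 0.18 without the library labelled NTG 1 and 0.20 without TG 2, and with library-size scaling alone it was 0.00093, with 41 genes above 0 and 40 below. The groups did not overlap for 18 of the 81 genes with TG above, against 11.2% of all tested genes. With TG below they did not overlap for 12 of the 81, against 12.3%. DESeq2 called 5 higher (Glrx5, Slc25a28, Ndufv1, Ndufs7 and Sdhb) and 4 lower (Trf, Cp, Slc39a14 and Alas2), which is 9 of the 81 genes, against 4.19% of all genes it tested. Sdhb, Ndufv1 and Ndufs7, like the other genes named below that were not planned for naming (Abcb10, Bola3, Fdx1, Nfu1, Cisd1, Cisd3, Ndufs8, Lcn2, Slc39a8, Hfe2, Bmp6, Hephl1, Cpox, Flvcr2, Blvra, Ciapin1 and Mms19), were chosen after their values were seen.

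**Figure D4:**
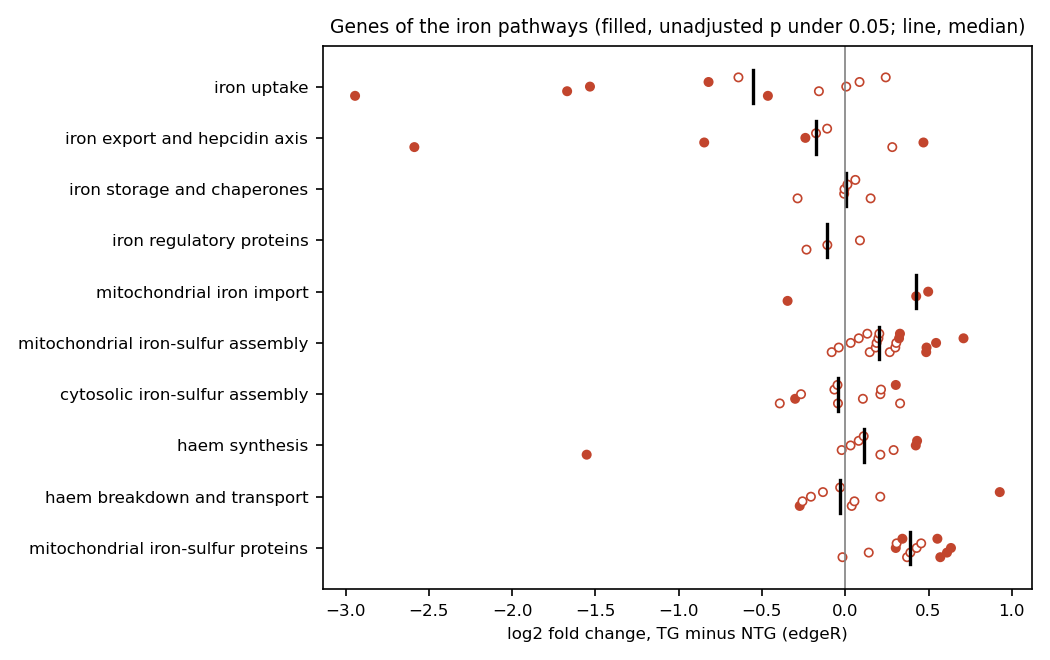
log2 fold change (x axis, TG minus NTG, edgeR) of every tested gene of the iron pathway lists (rows), members included, with filled points for an unadjusted p under 0.05 and a black line at the list's median. The medians are -0.55 for iron uptake, 0.20 for mitochondrial iron-sulfur assembly and 0.39 for mitochondrial iron-sulfur proteins.

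In the iron uptake list, to which Tfrc and Slc11a2 belong, 7 of 10 tested genes lay below 0 with a median of -0.55. The median was -0.33 without NTG 2, and -0.65 with 9 genes below 0 under library-size scaling alone. With all 6 hearts, 5 genes had an unadjusted p under 0.05, all lower in TG (Trf, Steap3, Slc39a8, Slc39a14 and Lcn2). The share of all tested genes in that direction was 9.76%. Slc39a8 had only 4 to 39 counts per library. Trf, the transferrin gene, was 5.60, 9.66 and 7.93 CPM in NTG and 1.73, 2.50 and 3.02 CPM in TG hearts. Every TG heart lay below every NTG heart, as in 12.3% of all tested genes. The log2 fold change of Trf was -1.67 (SE 0.29), with an adjusted p of 0.196 by edgeR and 0.000168 by DESeq2. Slc39a14, which imports iron that is not bound to transferrin, was 99.3, 201 and 130 CPM in NTG and 89.2, 75.7 and 79.0 CPM in TG hearts (log2 fold change -0.82, SE 0.24, adjusted p 0.204 by edgeR and 0.0302 by DESeq2). Steap3, a ferrireductase of the transferrin cycle, had a log2 fold change of -0.46 (SE 0.14, edgeR adjusted p = 0.204). Tfr2 and Cybrd1 had at most 8 counts in any library and were not tested. Lcn2, an iron-chelator carrier released in inflammation, was 64.0 CPM in NTG 2 and 2.22 to 14.4 CPM in the other 5 hearts.

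In the list of export and the hepcidin axis, 5 of 7 tested genes lay below 0, with a median of -0.18. Cp, the ceruloplasmin ferroxidase that works with ferroportin, was 173, 330 and 257 CPM in NTG and 122, 158 and 143 CPM in TG hearts. Its log2 fold change was -0.85 (SE 0.23), with an adjusted p of 0.196 by edgeR and 0.0151 by DESeq2. Heph, a related ferroxidase, had a log2 fold change of -0.11 (SE 0.22, edgeR adjusted p = 0.811). Hamp, the gene of the hormone hepcidin, was not tested, with 1 to 6 counts in 5 hearts and 23 in TG 3. Hephl1 had only 1 to 100 counts per library, overlapping groups and a log2 fold change of -2.59 (SE 0.93). At an unadjusted p under 0.05, Hfe2 was higher in TG (0.47), and Hephl1, Bmp6 (-0.24) and Cp were lower. The shares of all tested genes at that level were 8.83% higher and 9.76% lower. No gene of the list was higher at that level without NTG 2, NTG 3, TG 1 or TG 3, 2 were without TG 2, and 1 rather than 3 was lower without NTG 2, TG 1 or TG 3.

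With all 6 hearts, neither storage nor iron regulation showed a gene at an unadjusted p under 0.05. In the storage and chaperone list, 3 of 6 tested genes lay above 0 and the median was 0.0041 (-0.024 to 0.051, with 2 to 5 genes above 0, when 1 heart was left out). With library-size scaling alone 1 of 6 lay above 0 and the median was -0.077. Ncoa4, which sends ferritin to degradation, had a log2 fold change of -0.0049 (SE 0.082), and the iron chaperones Pcbp1 and Pcbp2 had 0.060 (SE 0.090) and -0.0066 (SE 0.088). In these 3 genes the 95% intervals lay within -0.21 and 0.27. Fbxl5, the iron sensor that marks Ireb2 protein for degradation, had a log2 fold change of -0.23 (SE 0.14, edgeR adjusted p = 0.398). It was -0.054 without NTG 2, and without the library labelled NTG 1 it had an unadjusted p under 0.05, the 1 gene of the 3 in iron regulation to do so.

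The pair of mitoferrin genes, which import iron into mitochondria, had log2 fold changes of opposite sign. Slc25a28, the form used in most tissues, was 20.7, 18.3 and 17.4 CPM in NTG and 26.4, 27.5 and 25.6 CPM in TG hearts, with a log2 fold change of 0.50 (SE 0.11) and an adjusted p of 0.196 by edgeR and 0.0210 by DESeq2. Slc25a37, the form best known from erythroid cells, was 25.5, 33.9 and 25.9 CPM in NTG and 21.6, 23.4 and 22.2 CPM in TG hearts, with a log2 fold change of -0.35 (SE 0.13, adjusted p 0.230 by edgeR and 0.242 by DESeq2). In both genes the groups did not overlap, a separation seen in 11.2% of all tested genes with TG above and 12.3% with TG below. Abcb10, listed with the mitoferrin genes, had a log2 fold change of 0.43 (SE 0.15, edgeR adjusted p = 0.215).

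Iscu and Nfs1 sat in a list of mitochondrial iron-sulfur assembly genes. In it 17 of 19 tested genes lay above 0, with a median of 0.20, against 48.7% of all tested genes above 0. At an unadjusted p under 0.05 there were 6, all higher in TG, against 8.83% of all tested genes in that direction. Among the 6 were Iscu, Fdx1, Glrx5, Nfu1 and Bola3. Glrx5, which passes clusters on from the scaffold, was 67.9, 51.7 and 56.3 CPM in NTG and 116, 83.6 and 88.5 CPM in TG hearts. Its log2 fold change was 0.71 (SE 0.15), with an adjusted p of 0.196 by edgeR and 0.0074 by DESeq2. Lyrm4, the small protein that holds Nfs1 stable, had a log2 fold change of 0.032 (SE 0.22), and Isca1, needed for later clusters, had 0.31 (SE 0.15). Fdx2, listed as Fdx1l, had at most 2 counts per library and was not tested. The count above 0 was 15 of 19 when counts were scaled by library size alone, 17 without the library labelled NTG 1 and 16 without NTG 2. The median was 0.10 without NTG 2, 0.12 with library-size scaling alone and 0.31 without the library labelled NTG 1. The number at an unadjusted p under 0.05 was 2 without NTG 3 or TG 1, 3 without NTG 2 or TG 3, and 9 without the library labelled NTG 1.

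Of the genes of mitochondrial proteins that carry iron-sulfur clusters, 12 of 13 tested lay above 0 (13 without the library labelled NTG 1). Their median was 0.39, and 48.7% of all tested genes lay above 0. An unadjusted p under 0.05 was found for 6, all higher in TG (Ndufv1, Ndufs7, Ndufs8, Sdhb, Cisd1 and Cisd3). The share of all tested genes in that direction was 8.83%. With 1 heart left out, the 6 became 3 without NTG 3, TG 1 or TG 3, and 4 without NTG 2. Without the library labelled NTG 1 they became 11, and the median was 0.27 to 0.55 with 1 heart left out. The 7 cardiomyocyte markers had a median log2 fold change of 0.53 (0.31 without NTG 2 and 0.79 without the library labelled NTG 1). Their part in the values of this list and of the mitochondrial assembly list was not tested.

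Assembly in the cytosol was divided, with 5 of 11 tested genes above 0 and a median of -0.044, which was -0.024 to 0.030 with 1 heart left out and -0.13 with library-size scaling alone. Ciapin1 was higher in TG (0.30) and Mms19 lower (-0.30) at an unadjusted p under 0.05. With 1 heart left out, 0 to 3 genes were higher and 0 to 2 lower at that level.

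In haem synthesis, 7 of 9 genes lay above 0, with a median of 0.11, and this was 4 of 9 with a median of -0.034 without NTG 2. Without the library labelled NTG 1 the median was 0.28, and with library-size scaling alone it was 0.031 with 6 of 9 above 0. Alas1, the housekeeping form of the rate-limiting enzyme, was 153, 105 and 135 CPM in NTG and 193, 158 and 178 CPM in TG hearts (log2 fold change 0.43, SE 0.15, edgeR adjusted p = 0.217). Its groups did not overlap, as in 11.2% of all tested genes with TG above. Alas2, the erythroid form, was 23.8, 62.3 and 48.5 CPM in NTG and 16.3, 13.7 and 16 CPM in TG hearts. Its log2 fold change was -1.55 (SE 0.33), with an adjusted p of 0.196 by edgeR and 0.000291 by DESeq2. Alas2 is itself one of the erythroid markers, of which 5 of 5 tested lay below 0 with a median of -1.05. Fech, which inserts iron into haem, had 0.081 (SE 0.12, edgeR adjusted p = 0.748), and Cpox 0.42 (unadjusted p = 0.0292). With 1 heart left out, 0 to 5 genes of the list were higher at an unadjusted p under 0.05, with 0 without TG 1 or TG 3 and 5 without the library labelled NTG 1.

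In haem breakdown and transport, 4 of 9 genes lay above 0 and the median was -0.031, with values of -0.10 to 0.032 when 1 heart was left out. With library-size scaling alone 2 of 9 lay above 0 and the median was -0.11. Hmox1, which frees iron from haem, was 34.4, 48.7 and 29.0 CPM in NTG and 41.2, 28.7 and 59.9 CPM in TG hearts, with a log2 fold change of 0.21 (SE 0.30, edgeR adjusted p = 0.724). Flvcr1, a haem exporter, had -0.031 (SE 0.20). Flvcr2 was higher in TG (0.93) and Blvra lower (-0.27) at an unadjusted p under 0.05, and with 1 heart left out 0 or 1 gene passed that level in each direction. Flvcr2 had only 15 to 37 counts per library.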

How the data were processed

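Poly-A RNA-seq libraries were made from 1 left ventricle each. The authors filtered the reads with in-house perl scripts, aligned them (the submitters' processing notes list HISAT2 and GRCh38), assembled transcripts with StringTie and deposited raw counts per gene from featureCounts, 1 column per heart, not normalized or pooled. GRCh38 is a human build, whereas 53499 of the 54409 gene entries also listed in GENCODE M21 (98.33%) have its coordinates on mouse GRCm38, including 8 of the 9 members (Fth1 starts and ends elsewhere). The strand setting and the handling of reads with several matches are not given in the sources used here, so reads of overlapping genes or near-identical copies could have been counted for either.

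Counts were used as deposited. In R 4.3.3, genes passing edgeR's filterByExpr were scaled by TMM and tested with edgeR 4.0.16 (quasi-likelihood, robust). The standard error is the log2 fold change divided by the root of F. DESeq2 1.42.0, limma 3.58.1 voom, other scalings and filters, a replicate block and each heart left out were the alternatives, and the R code was tested on simulated counts. RPKM used the annotated length in the table. Ratios were compared by the exact permutation test.

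The genes named were the 9 members, the pathway genes that the report names with no remark on their choice, ferritin copies, Hint2 and marker lists. Some listed genes are counted in their lists but are not reported here by name. The members and lists were chosen with earlier results of these data known. No pairing of hearts by replicate number was assumed, because their deviations from the group means correlated at 0.081, 0.17 and -0.25. No pair of libraries agreed within sampling noise. Depth covers counting error only.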

Additional observations from a re-analysis of the deposited data

How the results depend on the processing

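Among the values of the 9 members, 150 alternative values kept their direction, 5 changed sign and none was called, although Tfrc passed a log2 fold change of 0.5 without TG 3 (0.54). The 5 were all of Slc11a2 (-0.078 with library-size scaling alone, -0.0012 with no low-count filter, and -0.035 to 0.060 with 1 heart left out). The Iscu to Nfs1 difference was -0.0024 to 0.097 with 1 heart left out. Over all genes, the call count was 0 with edgeR and 583 with DESeq2 (228 higher, 355 lower), 545 with the likelihood-ratio test, 232 with no low-count filter (116 higher, 116 lower), 231 with a replicate block (84 higher, 147 lower), and 0 to 836 with 1 heart left out, the highest without the library labelled NTG 1. Among the 81 further pathway genes it was 9 with DESeq2, 8 with the likelihood-ratio test, 3 with no filter, 5 with the replicate block and 0 to 12 with 1 heart left out, again highest without NTG 1. The cause of these shifts was not tested. Under the replicate block Iscu had 0.32 and Nfs1 0.27, and 2 members had an unadjusted p under 0.05. Hearts of the same number were not shown to be paired. Library-size scaling alone moved the median of all genes to -0.093, against -0.0081 with TMM. Counts of genes above 0 without single hearts and under other scalings were chosen after seeing the data. With 3 hearts a group, an interval for Tfrc spans more than the threshold on both sides.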
